A study of Mus musculus with 9 samples.

Results

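The antiviral arm of the interferon response was described in the central cornea of 3 inbred mouse strains, gene by gene and array by array. The set held 43 genes chosen by name: 32 effectors and other interferon-stimulated genes, 5 sensors of foreign nucleic acid, 4 transcription factors and 2 subunits of the type I interferon receptor. Of the 43 genes, 41 had at least 1 probe set that carried their symbol alone in the platform annotation, among 18193 genes named in that way on the array. These 41 genes had 65 probe sets, and each gene was read from the one that was brightest on average across all 9 arrays. Of the 41 genes, 39 were bright enough to be tested, among 10956 genes tested in all. Isg15, the ubiquitin-like modifier of the response, and Ifi44 were not analysed here, so no level is given for them. Mx2, a GTPase of the myxovirus resistance family, lay between 4.18 and 4.39 on all 9 arrays, and Isg20, an RNA exonuclease, lay between 6.63 and 15.8, with the highest value on a B6 array. Both were below the limit for testing. Rsad2, Mx1 and Cmpk2 reached the limit only through the B6 arrays, so a difference from B6 was a condition of testing these 3 genes.

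Each array held RNA of 1 adult male mouse of 4 months. The mice were C57Bl/6J (B6), C57BLKS/J (KS), whose cornea the labels call thin, and SJL/J (SJL), whose cornea they call thick. There were 3 arrays per strain, a 2-mm punch was taken from the centre of each cornea, and both punches from 1 mouse formed 1 sample. Arrays are named by strain and replicate number, as in KS-2. The labels give B6 no corneal thickness, and they name no infection or treatment in any group. Each thickness is held by 1 strain, so corneal thickness and strain cannot be told apart.

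Type I interferons bind the receptor subunits IFNAR1 and IFNAR2, and the kinases JAK1 and TYK2 then phosphorylate STAT proteins, STAT2 among them. With IRF9 these form a complex that binds the interferon-stimulated response element, a short sequence near the start of many target genes. The targets include enzymes that degrade, edit or sequester viral RNA, the sensors that detect it, and STAT2, IRF7 and IRF9 themselves, so the pathway amplifies its own parts. The cornea is an exposed surface without blood vessels at its centre, and its epithelium is known for mounting this response to virus.

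The deposited intensities ran from 3.39 to 37501 on a linear scale, and 54.6% of them were below 16, near the lower end. No detection calls were used, so such values bound a transcript from above and do not measure it. Corneal markers were high on all arrays, with Krt12, the keratin of corneal epithelium, between 26007 and 29278 and Kera, a stromal proteoglycan, between 11129 and 13183. Of 18 leukocyte markers, 17 had a probe set. Their summed intensity was 1973 to 2118 in B6, 1720 to 2680 in KS and 1484 to 1739 in SJL, and Ptprc, Adgre1, Itgax, Cd3e, Cd3g, Cd79a, Siglech and Cd207 were at or below 5.37 on all arrays. Other markers of the list were present, with Cd68 at 419 to 773, Lyz2 at 292 to 758, Cd74 at 399 to 891, Laptm5 at 36.6 to 148, Csf1r at 25.7 to 81.3 and Itgam at 13.5 to 73.9. Of these 17 genes, 8 were tested, and 0 differed between KS and B6 in limma (2 at an unadjusted p under 0.05). In SJL 1 was higher than in B6, against 8.39% of all genes tested, and 1 lower, against 7.68%. At an unadjusted p under 0.05, 1 was higher and 4 were lower in SJL. Of the 6 conjunctival and limbal markers, 4 were tested, and 1 was lower in KS than in B6, against 2.87% of all genes. In SJL 3 were lower and 1 higher than in B6, against 7.68% and 8.39%. The list summed to 23781 to 29153 in B6, 21179 to 23439 in KS and 6542 to 8154 in SJL. The marker lower in KS was Krt4, a keratin of conjunctiva, at 154, 56.8 and 112 on the B6 arrays, 11.9, 6.9 and 38.1 on the KS arrays and 4.09, 4.08 and 4.1 on the SJL arrays. Retinal markers summed to 7145 on KS-3 and to at most 47.4 on the other arrays. On B6-3 the log2 ratio of the 3′ to the 5′ Gapdh probe sets was 1.55, against 0.73 to 1.17 on the others. The part that these cell markers and this RNA measure play in the differences below was not tested. In RNA from whole punches, fewer cells of a type and less RNA per cell cannot be told apart.

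Most of these genes were higher in B6 than in either other strain. In KS, 32 of the 39 tested genes were lower than in B6, against 2.87% of all genes tested, and 0 were higher, against 3.4%. In SJL, 31 of 39 were lower than in B6, against 7.68% of all genes, and 0 were higher, against 8.39%. The median log2 difference over the 39 genes was -2.04 for KS minus B6 and -1.76 for SJL minus B6, where the medians of all genes tested were 0.01 and 0.02. Without the 3 genes that were tested only through B6, 30 of 36 were lower in KS and 29 of 36 in SJL. The medians above and the counts by unadjusted p below include these 3 genes. Calls are adjusted p under 0.05 in limma with the 3 strain means in 1 fit, with Benjamini-Hochberg adjustment over all 22519 probe sets tested. With unadjusted p under 0.05, 36 genes were lower and 1 was higher in KS, and 33 were lower and 2 were higher in SJL. Differences are of log2(intensity + 10), which understates the change of dim genes, and each is given with its standard error. The comparisons of KS and of SJL with B6 share the B6 arrays.

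Beyond the counts, the groups were apart on single arrays. For 32 of 39 genes all 3 B6 arrays were above all 6 other arrays, against 5.29% of all genes tested, and for 0 genes were they below all 6, against 7.29%. Without Rsad2, Mx1 and Cmpk2 the count was 30 of 36. Of the 39 genes, 29 were called lower in both KS and SJL, against 1.71% of all genes. A fall of at least 2 on the log2 scale was called for 20 genes in KS, against 0.63% of all genes, and for 15 genes in SJL, against 1.27%. An F-test over the 3 strains called 34 of the 39 genes, against 19.4% of all genes. Without the same 3 genes these counts were 27 lower in both strains, 18 and 13 with the larger fall, and 32 by the F-test, of 36. Leaving out KS-3, the array with retinal markers, gave 27 of the 39 genes lower in KS and 30 lower in SJL, and leaving out B6-3 gave 30 and 28. These counts without 1 array include Rsad2, Mx1 and Cmpk2 and are given without the share over all genes.

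**Figure D1:**
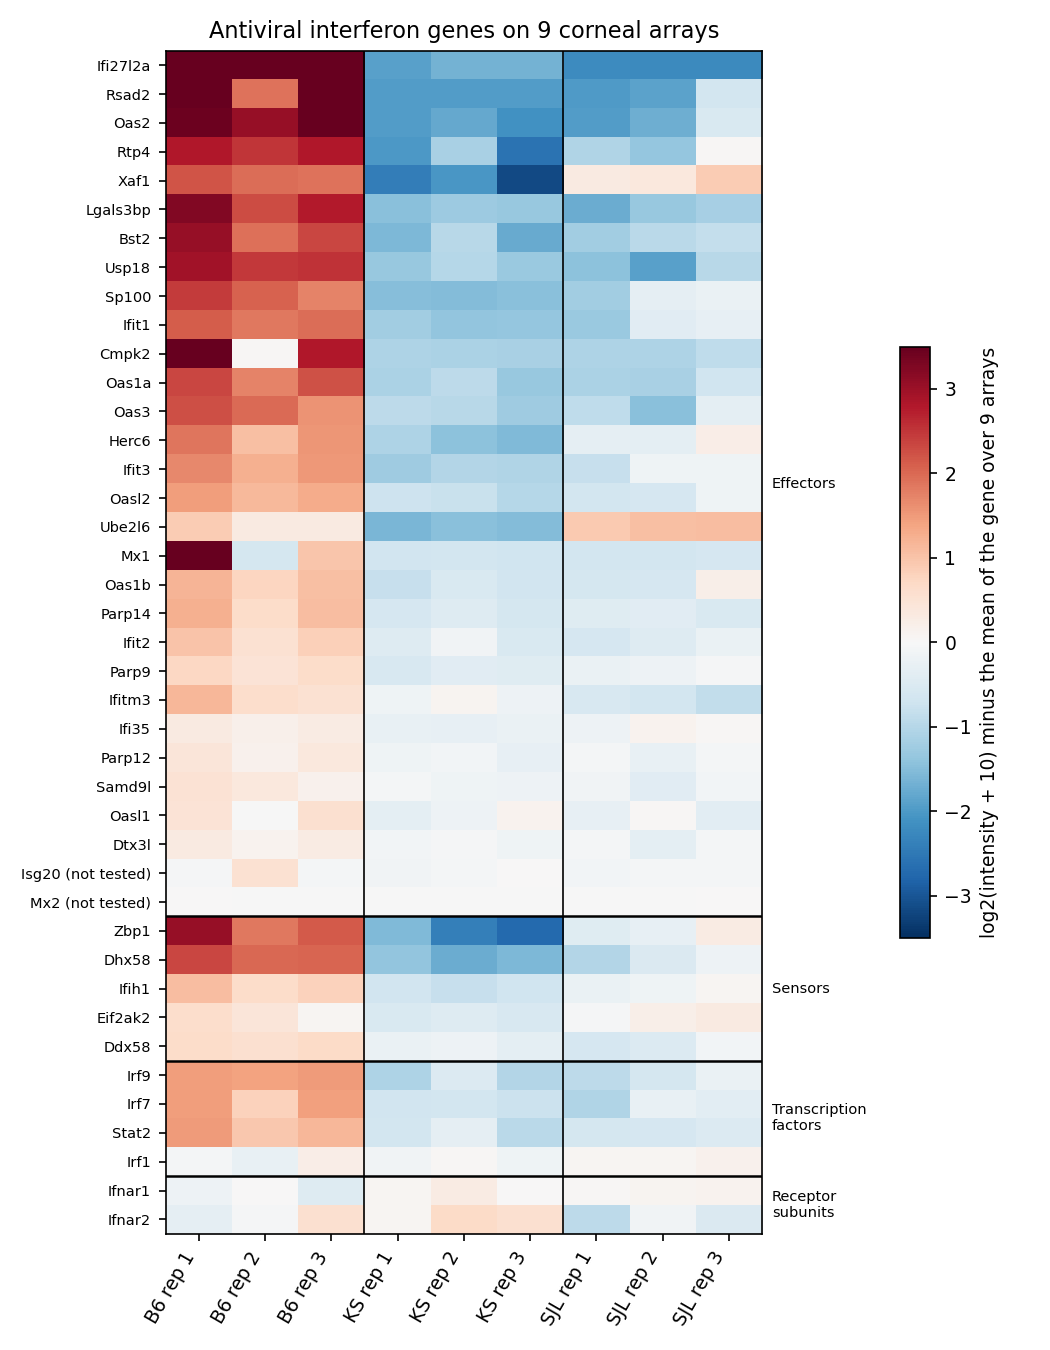
Levels of 41 genes on the 9 arrays, as log2(intensity + 10) minus the mean of the gene over the arrays; rows are genes by role, columns are arrays, and values past 3.5 in either direction share the darkest colour. The 3 B6 columns are red through most effectors, sensors and transcription factors, Ube2l6 is blue in KS alone, and Irf1 and the receptor subunits are pale throughout.

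Some of the promoters hold the sequence that the interferon-activated complex binds. The RefSeq promoter table of build GRCm38.p6 held 32 of the 43 genes. The motif was GAAA, any 2 bases and GAAA again, the core of the response element. Searched on both strands in the 250 bases before the start site, it was found in 8 of these 32 promoters (25%) and in 936 of 27025 genes with a promoter (3.46%). Among the tested genes, 7 had a match: Bst2, Ifit1, Ifit3, Oas1a, Oas3, Rsad2 and Stat2. Of these, Rsad2 was tested only through B6, and the other 6 were all called lower in KS than in B6, with a median log2 difference of -3.10 and a range of -3.87 to -1.83. Of the 21 tested genes whose promoter had no match, Cmpk2 left out for the same reason, 15 were called lower in KS, with a median of -0.88 and a range of -4.56 to 0.36. The value of -4.56 is that of Xaf1, whose probe sets disagree on KS, and the 21 also hold Irf1, Ifnar1 and Ifnar2. Of all genes tested, 2.87% were called lower in KS. The split by match used the 250-base window alone. With the 50 bases after the start site included, a window chosen after the first count was seen, 12 of 32 genes (37.5%) and 3.99% of all genes had a match. A match is a string of letters and not a measured binding site. The 5 promoters shown are of genes with a match, among them the neighbours Ifit1 and Ifit3 of 1 family, each as the 250 bases before the start site, read 5′ to 3′ on the strand of the gene, with matches on either strand in capitals.
Ifit1: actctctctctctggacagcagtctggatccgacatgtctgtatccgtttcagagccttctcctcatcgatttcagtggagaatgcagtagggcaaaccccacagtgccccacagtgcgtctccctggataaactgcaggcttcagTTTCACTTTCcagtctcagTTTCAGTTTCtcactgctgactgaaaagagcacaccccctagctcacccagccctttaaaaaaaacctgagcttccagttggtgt
Ifit3: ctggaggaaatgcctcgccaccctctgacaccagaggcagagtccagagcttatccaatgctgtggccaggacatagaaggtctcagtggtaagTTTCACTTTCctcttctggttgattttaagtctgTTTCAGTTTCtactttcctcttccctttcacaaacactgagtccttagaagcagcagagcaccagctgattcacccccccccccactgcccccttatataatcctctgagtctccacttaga
Oas1a: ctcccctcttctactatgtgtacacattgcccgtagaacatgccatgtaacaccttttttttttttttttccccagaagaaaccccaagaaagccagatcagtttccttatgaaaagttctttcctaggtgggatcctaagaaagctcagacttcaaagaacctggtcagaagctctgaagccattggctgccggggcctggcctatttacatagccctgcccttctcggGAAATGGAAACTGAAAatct
Rsad2: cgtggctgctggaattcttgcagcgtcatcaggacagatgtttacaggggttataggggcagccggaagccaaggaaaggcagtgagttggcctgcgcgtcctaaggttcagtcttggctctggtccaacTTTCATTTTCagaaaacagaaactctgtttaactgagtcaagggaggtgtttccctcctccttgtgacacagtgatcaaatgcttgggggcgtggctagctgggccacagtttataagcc
Stat2: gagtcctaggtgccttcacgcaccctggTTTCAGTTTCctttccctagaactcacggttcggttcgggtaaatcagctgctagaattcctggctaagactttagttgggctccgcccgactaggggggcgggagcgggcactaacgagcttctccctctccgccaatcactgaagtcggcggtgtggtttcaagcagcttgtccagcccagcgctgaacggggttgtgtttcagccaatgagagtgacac
These lie at chr19:34640639-34640888 on the plus strand for Ifit1, chr19:34583279-34583528 on the plus strand for Ifit3, chr5:120907526-120907775 on the minus strand for Oas1a, chr12:26456453-26456702 on the minus strand for Rsad2 and chr10:128270248-128270497 on the plus strand for Stat2. Ifit1 had matches starting 104 and 85 bases before its start site, and those of Ifit3 started 156 and 122 bases before. In Oas1a the 2 matches started at 20 and 14 bases and overlap, the single match of Rsad2 started at 120 bases and that of Stat2 at 222.

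The effectors that bind or degrade RNA, or block virus entry and release, formed the largest group. Of its 17 genes, 15 were tested. In KS 12 were lower than in B6, against 2.87% of all genes tested, and in SJL 13, against 7.68%, with medians of -2.59 and -1.92. Rsad2 and Cmpk2, tested only through B6, are among the 12 and the 13. The SJL median is the value of Mx1, tested likewise and not called. The IFIT proteins, encoded by Ifit1, Ifit2 and Ifit3, bind viral RNA that lacks the cap modification of host messages. Ifit1 had intensities of 7251, 5987 and 6514 on the B6 arrays, 710, 640 and 643 on the KS arrays and 677, 1274 and 1373 on the SJL arrays, given here and below in the order of replicates 1, 2 and 3. Its B6 mean of 6584 ± 635 (SD, n = 3) was 9.91 times the KS mean and 5.94 times the SJL mean, and the log2 difference was -3.29 ± 0.24 (adjusted p = 8.00e-05) for KS and -2.62 ± 0.24 (adjusted p = 0.000152) for SJL. Ifit3 had intensities of 10462, 7745 and 9300 on the B6 arrays, 1361, 1607 and 1561 on the KS arrays and 1839, 2928 and 2932 on the SJL arrays, with differences of -2.59 ± 0.20 (adjusted p = 0.000101) and -1.85 ± 0.20 (adjusted p = 0.000359). Ifit2 differed least of the 3, at 439, 316 and 388 on the B6 arrays, 156, 197 and 144 on the KS arrays and 141, 155 and 182 on the SJL arrays, with differences of -1.15 ± 0.16 (adjusted p = 0.00368) for KS and -1.20 ± 0.16 (adjusted p = 0.00136) for SJL. In all 3 genes the lowest B6 array was above every array of the other strains.

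The oligoadenylate synthetases make the second messenger that activates the ribonuclease RNase L. Oas2 had the largest differences of these genes, with intensities of 1126, 870 and 1292 on the B6 arrays, 17.2, 20.6 and 14.5 on the KS arrays and 17.2, 22.5 and 63.4 on the SJL arrays. Its difference was -5.32 ± 0.34 (adjusted p = 3.40e-05) for KS and -4.76 ± 0.34 (adjusted p = 3.64e-05) for SJL, and SJL-3 stood above the other SJL arrays. Oas1a read 2992, 1965 and 2724 on the B6 arrays, 261, 302 and 226 on the KS arrays and 261, 257 and 353 on the SJL arrays, a difference of -3.22 ± 0.19 (adjusted p = 2.39e-05) for KS and -3.09 ± 0.19 (adjusted p = 1.69e-05) for SJL. Oas3, at 4441, 3669 and 2732 on the B6 arrays, 477, 465 and 379 on the KS arrays and 488, 325 and 724 on the SJL arrays, differed by -2.99 ± 0.28 (adjusted p = 0.000372) and -2.84 ± 0.28 (adjusted p = 0.000256). Oas1b, the flavivirus resistance gene of mice, read 637, 466 and 574 on the B6 arrays, 150, 185 and 168 on the KS arrays and 176, 179 and 316 on the SJL arrays, with differences of -1.67 ± 0.22 (adjusted p = 0.00289) and -1.32 ± 0.22 (adjusted p = 0.00452) and again the highest SJL value on replicate 3. The 2 synthetase-like genes differed in their calls. Oasl2 read 5736, 4536 and 5114 on the B6 arrays, 1234, 1185 and 1026 on the KS arrays and 1308, 1366 and 1848 on the SJL arrays, with differences of -2.15 ± 0.15 (adjusted p = 7.40e-05) and -1.77 ± 0.15 (adjusted p = 0.000114), and no overlap between B6 and the others. Oasl1 read 2924, 2052 and 3061 on the B6 arrays, 1647, 1857 and 2254 on the KS arrays and 1702, 2130 and 1617 on the SJL arrays, with differences of -0.47 ± 0.19 (adjusted p = 0.222) and -0.55 ± 0.19 (adjusted p = 0.0901). Neither was called, and the lowest B6 array lay within the range of the other strains.

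Rsad2, Cmpk2 and Mx1 were barely above the array minimum in KS and were the most variable genes within B6. All 3 were tested only through B6, so a difference from B6 was a condition of the tests given here. Rsad2 encodes viperin, an enzyme that makes a chain-terminating nucleotide, and Cmpk2 is the nucleotide kinase encoded beside it. Rsad2 read 1312, 207 and 853 on the B6 arrays, 4.96, 4.93 and 4.89 on the KS arrays and 4.66, 5.64 and 27 on the SJL arrays, with differences of -5.39 ± 0.62 (adjusted p = 0.00126) and -4.94 ± 0.62 (adjusted p = 0.000969). Cmpk2 read 381, 24.2 and 224 on the B6 arrays, 5.77, 5.52 and 5.34 on the KS arrays and 5.85, 5.83 and 8.01 on the SJL arrays, with differences of -3.24 ± 0.74 (adjusted p = 0.0416) and -3.15 ± 0.74 (adjusted p = 0.0222). Both were highest on B6-1 and lowest of the B6 arrays on replicate 2. The Cmpk2 calls rested on the number of arrays: that in KS was lost when any array but B6-2 was left out (adjusted p 0.0605 to 0.135), and that in SJL when B6-1 (0.0566) or B6-3 (0.0735) or SJL-1 (0.0534), SJL-2 (0.0582) or SJL-3 (0.0623) was left out. Mx1, a GTPase that traps the nucleocapsids of influenza-like viruses, read 285, 6.33 and 39.3 on the B6 arrays, 5.84, 6.23 and 5.51 on the KS arrays and 6.09, 6.2 and 6.68 on the SJL arrays. Its B6-2 was at the level of the other strains, and the differences of -1.96 ± 0.84 (adjusted p = 0.251) and -1.92 ± 0.84 (adjusted p = 0.17) were not called.

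Membrane and cytoplasmic restriction factors differed by unequal amounts. Bst2, known as tetherin because it holds budding virions at the cell surface, read 776, 349 and 468 on the B6 arrays, 21.8, 38.5 and 17.7 on the KS arrays and 31.1, 39.6 and 43.1 on the SJL arrays, with differences of -3.87 ± 0.30 (adjusted p = 0.000115) and -3.43 ± 0.30 (adjusted p = 0.00012). Ifitm3, which blocks virus entry from endosomes, read 9371, 6442 and 6111 on the B6 arrays, 3810, 4478 and 3749 on the KS arrays and 2864, 2686 and 2334 on the SJL arrays. In KS it differed by -0.84 ± 0.17 (adjusted p = 0.0251) and in SJL by -1.45 ± 0.17 (adjusted p = 0.000682), and its KS call was lost without KS-1 (adjusted p 0.0775), KS-2 (0.0528) or KS-3 (0.0984). Samd9l, a restriction factor of poxviruses, read 7195, 6643 and 5646 on the B6 arrays, 4877, 4627 and 4503 on the KS arrays and 4688, 3890 and 4740 on the SJL arrays. Its difference was -0.47 ± 0.12 (adjusted p = 0.0618) for KS, not called, and -0.55 ± 0.12 (adjusted p = 0.016) for SJL, a call lost without B6-1 (adjusted p 0.0551) or B6-2 (0.0514). All 3 B6 arrays were above all 6 others for Bst2, Ifitm3 and Samd9l.

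**Figure D2:**
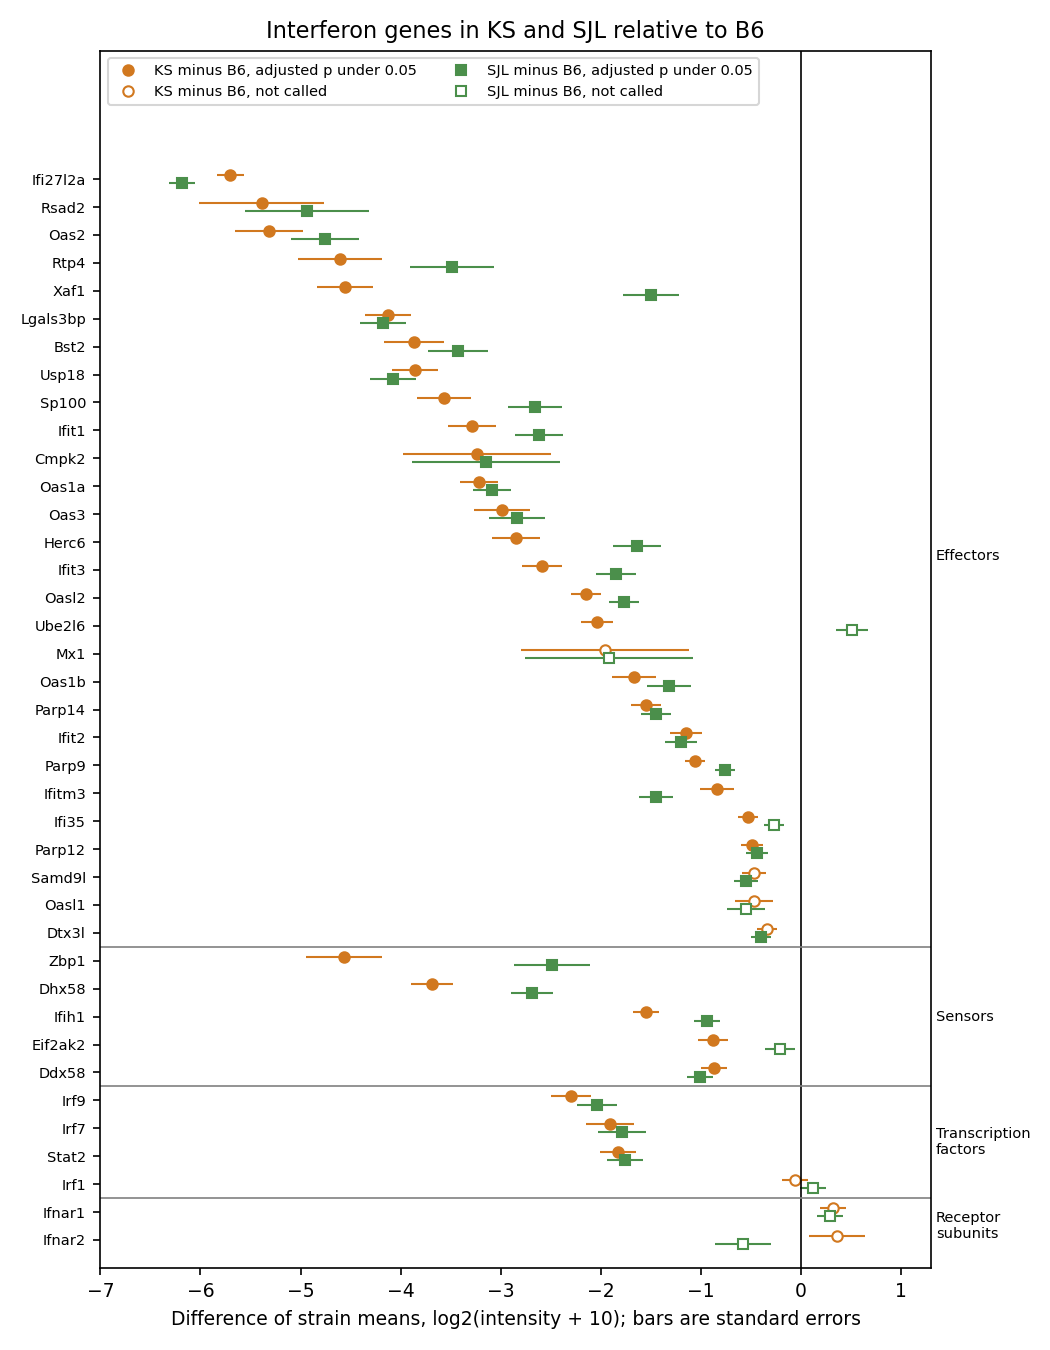
Log2 differences of strain means, KS minus B6 (circles) and SJL minus B6 (squares), for the 39 tested genes by role, with standard errors as bars; filled marks have an adjusted p under 0.05. Marks lie left of 0 for most effectors and sensors, the farthest being Ifi27l2a at -6.18 in SJL and -5.70 in KS, while Ube2l6 in SJL, Irf1 and the receptor subunits have open marks near 0.

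The ISG15 system attaches the ISG15 modifier to proteins and removes it. Its 3 measured genes were lower in KS than in B6, against 2.87% of all genes tested, and 2 of them were lower in SJL, against 7.68%. Usp18, the protease that removes ISG15 and that also restrains the receptor, read 5256, 3847 and 3996 on the B6 arrays, 264, 338 and 270 on the KS arrays and 245, 175 and 345 on the SJL arrays, with differences of -3.86 ± 0.23 (adjusted p = 2.64e-05) for KS and -4.08 ± 0.23 (adjusted p = 1.10e-05) for SJL. Herc6, the main ISG15 ligase of mice, read 815, 458 and 647 on the B6 arrays, 97, 72.9 and 66.6 on the KS arrays and 169, 167 and 254 on the SJL arrays, with differences of -2.85 ± 0.24 (adjusted p = 0.000197) and -1.64 ± 0.24 (adjusted p = 0.00229). Ube2l6, the conjugating enzyme that hands ISG15 to the ligase, had another order, with intensities of 295, 195 and 193 on the B6 arrays, 43.6, 49.4 and 47.3 on the KS arrays and 300, 330 and 335 on the SJL arrays. Its KS arrays were below all others, with a difference of -2.04 ± 0.16 (adjusted p = 0.000109) from B6. The SJL arrays were all above the B6 arrays, but the difference of 0.51 ± 0.16 (adjusted p = 0.0633) was not called.

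The ADP-ribosyltransferases Parp9, Parp12 and Parp14 and the ubiquitin ligase Dtx3l, a partner of Parp9, differed by less. In KS 3 of the 4 were called lower than in B6, against 2.87% of all genes tested, and in SJL all 4, against 7.68%. Parp14 read 2422, 1599 and 2172 on the B6 arrays, 669, 744 and 660 on the KS arrays and 759, 766 and 695 on the SJL arrays, with differences of -1.55 ± 0.15 (adjusted p = 0.000411) and -1.45 ± 0.15 (adjusted p = 0.000302). Parp9 read 3271, 2766 and 3093 on the B6 arrays, 1358, 1518 and 1492 on the KS arrays and 1689, 1752 and 1926 on the SJL arrays, with differences of -1.06 ± 0.10 (adjusted p = 0.000341) and -0.76 ± 0.10 (adjusted p = 0.00113). Parp12 and Dtx3l were within 1 log2 unit of B6. Parp12 read 7276, 5998 and 6994 on the B6 arrays, 4859, 5103 and 4411 on the KS arrays and 5155, 4569 and 5222 on the SJL arrays, with differences of -0.49 ± 0.11 (adjusted p = 0.0347) and -0.44 ± 0.11 (adjusted p = 0.0274). Dtx3l, with the highest mean of the 4, read 7612, 6668 and 7366 on the B6 arrays, 5705, 5919 and 5441 on the KS arrays and 5843, 4813 and 5808 on the SJL arrays, with differences of -0.34 ± 0.10 (adjusted p = 0.114), not called, and -0.40 ± 0.10 (adjusted p = 0.0342). Several of these calls rested on single arrays. That of Parp12 in KS was lost without any array except B6-2 and SJL-2 (adjusted p 0.0508 to 0.13), and in SJL without B6-1 (0.0895) or B6-3 (0.0746) or SJL-2 (0.0673) or SJL-3 (0.0568). That of Dtx3l in SJL was lost without any array except B6-2 and SJL-1 (adjusted p 0.0545 to 0.104).

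The other interferon-stimulated genes had the lowest medians of the role groups. Of 7 genes, 6 were tested, 6 were lower in KS and 5 in SJL, with medians of -4.34 and -3.08. Of all genes tested, 2.87% were lower in KS and 7.68% in SJL. Without Xaf1, whose probe sets disagree on KS, 5 of 5 were lower in KS and 4 in SJL, with medians of -4.13 and -3.49. Ifi27l2a, a small hydrophobic membrane protein, read 9976, 7691 and 7301 on the B6 arrays, 132, 158 and 157 on the KS arrays and 105, 104 and 103 on the SJL arrays. Its B6 mean of 8323 ± 1445 (SD, n = 3) was 55.8 times the KS mean and 80 times the SJL mean, with differences of -5.70 ± 0.13 (adjusted p = 8.30e-08) and -6.18 ± 0.13 (adjusted p = 3.20e-08). Lgals3bp, a secreted protein that binds galectins, read 785, 401 and 572 on the B6 arrays, 20.7, 24.9 and 23.4 on the KS arrays and 15.5, 23.8 and 27.4 on the SJL arrays, with differences of -4.13 ± 0.23 (adjusted p = 1.63e-05) and -4.18 ± 0.23 (adjusted p = 9.68e-06). Rtp4, a chaperone of receptor transport to the cell surface, read 4200, 3457 and 4238 on the B6 arrays, 142, 266 and 91 on the KS arrays and 281, 229 and 619 on the SJL arrays, with differences of -4.61 ± 0.42 (adjusted p = 0.000311) and -3.49 ± 0.42 (adjusted p = 0.000787). On the log2(intensity + 10) scale its SD was 0.17 in B6, 0.73 in KS and 0.74 in SJL. Sp100, a component of nuclear bodies that silence viral genomes, read 2751, 2083 and 1663 on the B6 arrays, 170, 166 and 172 on the KS arrays and 209, 394 and 422 on the SJL arrays, with differences of -3.57 ± 0.27 (adjusted p = 9.51e-05) and -2.66 ± 0.27 (adjusted p = 0.00027). Ifi35, with the highest mean of these genes, read 11035, 10012 and 10872 on the B6 arrays, 7364, 7196 and 7545 on the KS arrays and 7755, 9687 and 9038 on the SJL arrays. It differed by -0.53 ± 0.10 (adjusted p = 0.0181) in KS, a call lost without B6-1 (adjusted p 0.0679) or B6-3 (0.0549) or KS-1 (0.0572), KS-2 (0.0798) or KS-3 (0.0595), and by -0.27 ± 0.10 (adjusted p = 0.107) in SJL, not called.

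Xaf1, an interferon-induced gene that favours cell death, had probe sets that disagreed. The brighter probe set read 5493, 4649 and 4458 on the B6 arrays, 214, 284 and 123 on the KS arrays and 1468, 1542 and 2197 on the SJL arrays, with differences from B6 of -4.56 ± 0.28 (adjusted p = 2.76e-05) for KS and -1.50 ± 0.28 (adjusted p = 0.00734) for SJL. The other probe set gave the opposite order, with 4.9, 4.78 and 4.69 on the B6 arrays, 457, 574 and 434 on the KS arrays and 4.85, 4.84 and 4.87 on the SJL arrays. On that probe set the difference was 5.06 ± 0.11 (adjusted p = 5.14e-08) for KS minus B6 and -5.06 ± 0.11 (adjusted p = 2.60e-08) for SJL minus KS. B6 and SJL were at the lower end of the scale there, and the probe set reached the limit for testing only through the KS arrays. A difference of KS from the other strains was thus a condition of these tests. No direction for Xaf1 in KS holds over both probe sets, and whether the strains differ in sequence under the probes, in the transcript made or in its amount was not tested.

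**Figure D3:**
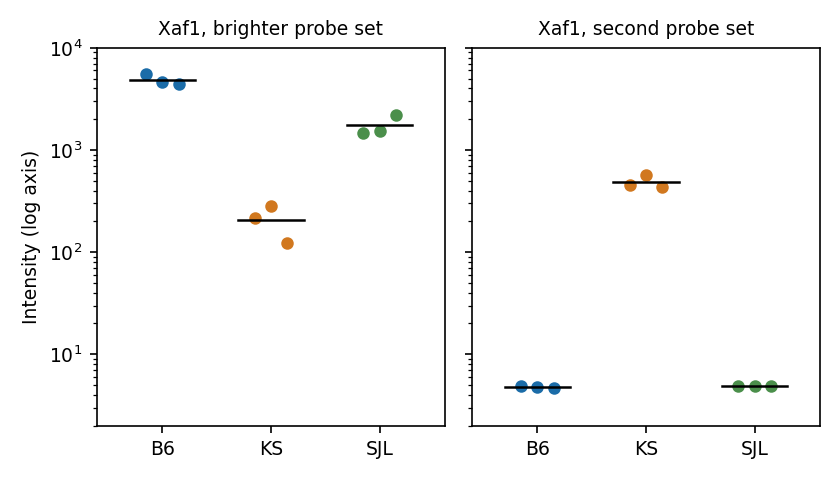
Intensity of the 2 tested Xaf1 probe sets on a log axis, with 1 point per array and the strain mean as a line. The KS arrays are the lowest on the brighter probe set, at 123 to 284, and the highest on the other, at 434 to 574.

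All 5 sensors were lower in KS than in B6, against 2.87% of all genes tested, and 4 of them were lower in SJL, against 7.68%. The medians were -1.55 and -1.01, and for Eif2ak2 the other probe sets gave different calls. Zbp1, which senses left-handed nucleic acid and can start necroptosis, read 3833, 1659 and 2043 on the B6 arrays, 149, 78 and 60.5 on the KS arrays and 337, 370 and 557 on the SJL arrays, with differences of -4.57 ± 0.38 (adjusted p = 0.000185) for KS and -2.49 ± 0.38 (adjusted p = 0.00288) for SJL. Dhx58 encodes LGP2, a helicase that modulates the other RNA sensors. It read 1391, 1118 and 1138 on the B6 arrays, 97, 74.3 and 83.5 on the KS arrays and 128, 188 and 238 on the SJL arrays, with differences of -3.69 ± 0.21 (adjusted p = 1.57e-05) and -2.69 ± 0.21 (adjusted p = 5.73e-05). Ifih1 encodes MDA5, the sensor of long double-stranded RNA, and read 2619, 1932 and 2166 on the B6 arrays, 784, 704 and 765 on the KS arrays and 1049, 1125 and 1302 on the SJL arrays, with differences of -1.55 ± 0.13 (adjusted p = 0.000194) and -0.94 ± 0.13 (adjusted p = 0.00174). Ddx58 encodes RIG-I, the sensor of short RNA with triphosphate ends. Its intensities were 869, 819 and 879 on the B6 arrays, 470, 488 and 430 on the KS arrays and 363, 395 and 512 on the SJL arrays, with differences of -0.87 ± 0.13 (adjusted p = 0.00491) and -1.01 ± 0.13 (adjusted p = 0.00103). For these 4 sensors no array of KS or SJL reached the lowest B6 array. Eif2ak2 encodes PKR, the kinase that stops translation on double-stranded RNA, and read 795, 692 and 535 on the B6 arrays, 353, 372 and 343 on the KS arrays and 500, 590 and 637 on the SJL arrays. In KS it differed by -0.88 ± 0.15 (adjusted p = 0.0111), a call lost without KS-3 (adjusted p 0.0503), and the SJL difference of -0.21 ± 0.15 (adjusted p = 0.403) was not called. The next brighter Eif2ak2 probe set gave -0.43 ± 0.3 for KS minus B6 (adjusted p = 0.487) and -1.06 ± 0.3 for SJL minus B6 (adjusted p = 0.0463). The third gave -0.95 ± 0.28 (adjusted p = 0.108) and -1.27 ± 0.28 (adjusted p = 0.0176), so 2 of its 3 probe sets were called lower in SJL and not in KS.

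Of the 4 transcription factors, 3 were lower than in B6 in both other strains and Irf1 was not. Of all genes tested, 2.87% were lower in KS and 7.68% in SJL. Irf9, the DNA-binding partner of the STAT proteins, read 2197, 2118 and 2249 on the B6 arrays, 375, 570 and 390 on the KS arrays and 414, 518 and 678 on the SJL arrays, with differences of -2.30 ± 0.20 (adjusted p = 0.000246) for KS and -2.04 ± 0.20 (adjusted p = 0.000259) for SJL. Its log2(intensity + 10) values had an SD of 0.04 in B6, against 0.33 in KS and 0.35 in SJL. Irf7, the factor that drives further interferon production, read 1492, 938 and 1454 on the B6 arrays, 334, 340 and 314 on the KS arrays and 251, 446 and 411 on the SJL arrays, with differences of -1.91 ± 0.24 (adjusted p = 0.00199) and -1.79 ± 0.24 (adjusted p = 0.00134). Stat2 read 241, 163 and 190 on the B6 arrays, 47.9, 61.9 and 37 on the KS arrays and 48.3, 49.7 and 54.2 on the SJL arrays, with differences of -1.83 ± 0.18 (adjusted p = 0.000456) and -1.76 ± 0.18 (adjusted p = 0.000282). In all 3 the B6 arrays were above the others. Irf1, a factor that interferon gamma induces strongly, read 3844, 3375 and 4750 on the B6 arrays, 3693, 4099 and 3598 on the KS arrays and 4201, 4206 and 4484 on the SJL arrays, the highest mean of the 4. Its strain means lay close together (B6 3990 ± 699, KS 3797 ± 266, SJL 4297 ± 162; SD, n = 3), with differences of -0.06 ± 0.13 (adjusted p = 0.85) and 0.12 ± 0.13 (adjusted p = 0.589).

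Neither receptor subunit was called in any comparison, and 1 was past an unadjusted p of 0.05 in each. Ifnar1 read 190, 215 and 155 on the B6 arrays, 227, 263 and 215 on the KS arrays and 220, 232 and 235 on the SJL arrays, with differences of 0.32 ± 0.13 (adjusted p = 0.215) and 0.29 ± 0.13 (adjusted p = 0.169). Ifnar2 read 118, 145 and 222 on the B6 arrays, 157, 241 and 223 on the KS arrays and 74.2, 136 and 102 on the SJL arrays, with differences of 0.36 ± 0.28 (adjusted p = 0.521) and -0.58 ± 0.28 (adjusted p = 0.204). Its largest difference was between SJL and KS, at -0.94 ± 0.28 (adjusted p = 0.0524), and the 3 SJL arrays were below the 3 KS arrays.

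**Figure D4:**
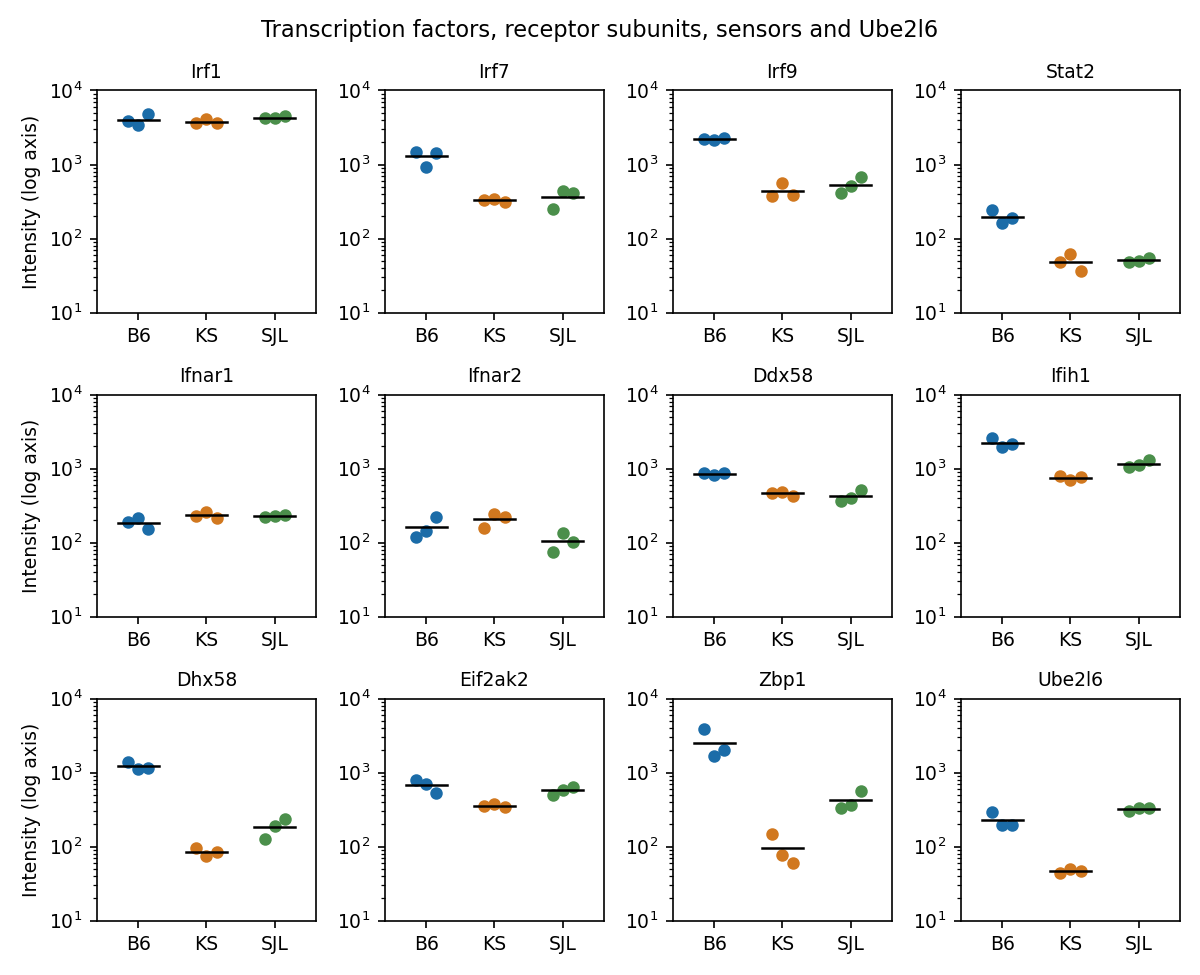
Intensity on a log axis of the 4 transcription factors, the 2 receptor subunits, the 5 sensors and Ube2l6, with 1 point per array and the strain mean as a line. B6 is apart from the other strains for Irf7, Irf9, Stat2 and 4 sensors, while the B6 arrays overlap both other strains for Irf1, at 3375 to 4750 in B6, and for Ifnar2, and KS alone is low for Ube2l6, at 43.6 to 49.4.

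Between the strains with thick and thin corneas fewer of these genes were called. In SJL 8 of the 39 genes were higher than in KS, against 6.8% of all genes tested, and 2 were lower, against 8.08%. The median difference was 0.18, where that of all genes was 0.02. The 8 higher genes held 4 of the 5 sensors, with SJL minus KS at 2.08 ± 0.38 (adjusted p = 0.00731) for Zbp1, 1.00 ± 0.21 (adjusted p = 0.0124) for Dhx58, 0.62 ± 0.13 (adjusted p = 0.0148) for Ifih1 and 0.67 ± 0.15 (adjusted p = 0.0186) for Eif2ak2, whose next probe set had the opposite sign, at -0.64 (adjusted p = 0.207). Ddx58 was not called, at -0.14 ± 0.13 (adjusted p = 0.536). Among effectors, Ube2l6 was higher in SJL by 2.55 ± 0.16 (adjusted p = 1.54e-05), Herc6 by 1.21 ± 0.24 (adjusted p = 0.011) and Ifit3 by 0.73 ± 0.20 (adjusted p = 0.0379), and the brighter Xaf1 probe set by 3.06 ± 0.28 (adjusted p = 0.000158). The 2 lower genes were Ifitm3, at -0.61 ± 0.17 (adjusted p = 0.046), and Ifi27l2a, at -0.48 ± 0.13 (adjusted p = 0.0423). The transcription factors ranged from 0.06 to 0.26 with 0 of 4 called, and by unadjusted p under 0.05 also 0. Of the 10 calls, that of Ube2l6 alone held under every alternative tried. Leaving out 1 array ended several others. Without KS-2 the adjusted p was 0.0604 for Ifih1, 0.0525 for Dhx58 and 0.0509 for Eif2ak2, and without SJL-3 it was 0.0557 for Ifih1 and 0.0707 for Eif2ak2. Eif2ak2 was also lost without KS-1 (0.0586) or KS-3 (0.0679) or SJL-2 (0.0523). Ifit3 was lost without B6-3 (0.0535), KS-1 (0.118), KS-2 (0.0831) or KS-3 (0.0919) or SJL-2 (0.107) or SJL-3 (0.126). Ifitm3 was lost without B6-2 (0.0583) or any 1 array of KS or SJL (0.0571 to 0.153), and Ifi27l2a without B6-2 (0.0565), KS-2 (0.138) or KS-3 (0.134) or any 1 SJL array (0.0778 to 0.112). The second Zbp1 probe set gave 0.91 (adjusted p = 0.191), with all 3 SJL arrays above all 3 KS arrays. The next Herc6 probe set gave 1.09 (adjusted p = 0.0123), and the further ones gave 0.49 (0.421) and 0.43 (0.481), not called. With the mean of its tested probe sets Herc6 was not called, at 0.81 (0.0663). Without KS-2 the count of higher genes was 4 and without SJL-1 it was 11. The count of lower genes was 0 without B6-2, KS-2, KS-3, SJL-1 or SJL-3, and without KS-3 the count of higher genes was 6.

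The spread of these genes was described among the 3 mice of each strain. The median SD of log2(intensity + 10) over the 39 genes was 0.25 in B6, 0.14 in KS and 0.25 in SJL, where the medians over all genes tested were 0.15, 0.11 and 0.17. The largest SD of the 3 strains lay in B6 for 22 of 39 genes, against 35.3% of all genes, in SJL for 15, against 47%, and in KS for 2, against 17.7%. Rsad2, Mx1 and Cmpk2, tested only through B6, are among the 22, and without them the counts were 19, 15 and 2 of 36. The SDs in B6 were led by Mx1 at 2.11, Cmpk2 at 1.85 and Rsad2 at 1.36, all 3 near the lower end of the scale in KS. Zbp1 at 0.63, Bst2 at 0.57 and Lgals3bp at 0.48 came next. The same genes had SDs of 0.60, 0.42 and 0.09 in KS and 0.38, 0.19 and 0.28 in SJL. These spreads were not tested. The genes of an array share 1 mouse, so they do not stand for independent observations of its spread.

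Within a strain, most but not all of the genes were high or low on the same mouse. The arrays named here are those that most of the 39 genes had as highest or lowest, so they were picked from the same counts. In B6, replicate 1 was the highest array for 31 of 39 genes, against 28.2% of all genes tested, and replicate 2 the lowest for 29, against 38.3%. Rsad2, Mx1 and Cmpk2, tested only through B6, are among the 31 and the 29. In SJL, replicate 3 was the highest for 31, against 23.1%, and replicate 1 the lowest for 26, against 44.4%. In KS, replicate 2 was the highest for 26, against 34.3%, and replicate 3 the lowest for 24, against 27.8%. The mean log2(intensity + 10) of the 39 genes was 10.91, 10.28 and 10.60 on the B6 arrays, 8.26, 8.38 and 8.16 on the KS arrays and 8.48, 8.62 and 8.91 on the SJL arrays. These means, and those of effectors below, include Rsad2, Mx1 and Cmpk2, tested only through B6. The lowest B6 mouse, at 10.28, was above the highest mouse of the other strains, at 8.91. By role, the B6 arrays had means of 11.29, 10.53 and 10.91 for effectors, 10.63, 10.18 and 10.23 for sensors and 10.39, 10.03 and 10.38 for transcription factors. In SJL the corresponding means were 8.53, 8.61 and 8.96 for effectors, 8.63, 8.85 and 9.16 for sensors and 8.66, 8.95 and 9.07 for transcription factors. In KS they were 8.25, 8.40 and 8.17 for effectors, 8.22, 7.97 and 7.91 for sensors and 8.68, 8.95 and 8.59 for transcription factors. The KS sensors were thus highest on replicate 1, and effectors and transcription factors on replicate 2. Receptor subunits had means of 7.32, 7.54 and 7.61 in B6, lowest on replicate 1, 7.64, 8.03 and 7.84 in KS and 7.12, 7.55 and 7.37 in SJL. Without B6-1 the largest SD lay in B6 for 16 genes, in KS for 6 and in SJL for 17, and without B6-2 for 15, 5 and 19. Those in KS numbered 1 without KS-3, 3 without KS-2 or SJL-1, 5 without SJL-3 and 7 without KS-1. Those in SJL numbered 10 without SJL-1. Leaving out an array also leaves fewer arrays in the SD of its strain. The share over all genes is not given for these counts, so they are no result about these genes.

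**Figure D5:**
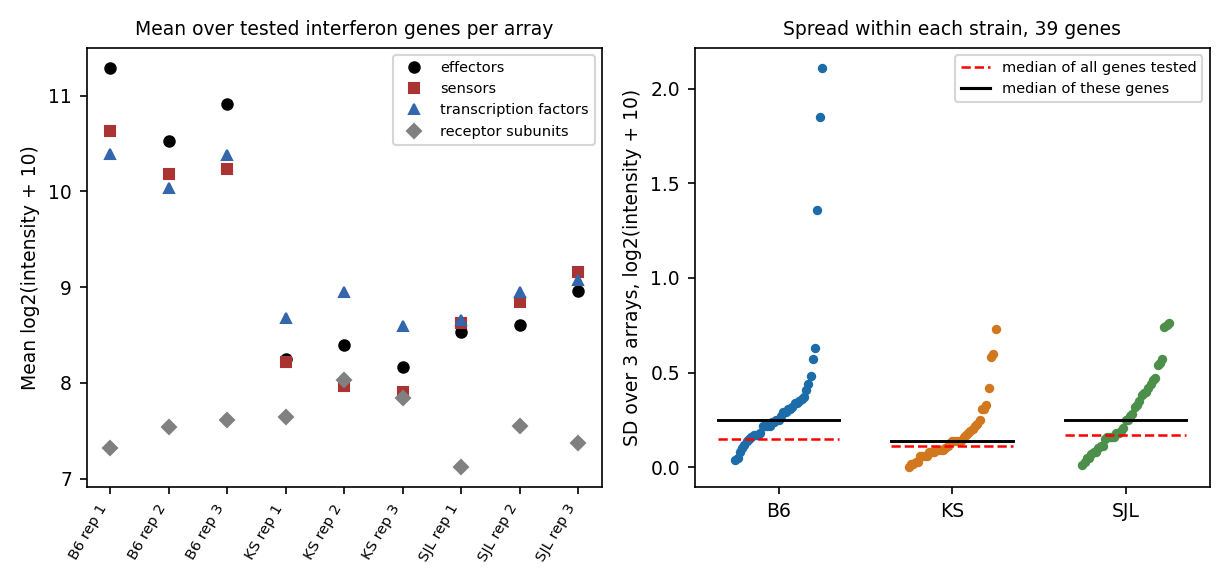
Left, mean log2(intensity + 10) per array over the tested genes of each role; right, SD over the 3 arrays of a strain, with 1 point per gene, the median of these 39 genes as a solid line and that of all genes tested as a dashed line. The 3 B6 arrays lie above the rest for effectors, sensors and transcription factors but not for receptor subunits, and the SDs of B6 reach 2.11.

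Other genes of the pathway, listed separately, held fewer calls. Of 51 such genes 45 had a probe set and 34 were tested. In KS 4 of 34 were lower than in B6, against 2.87% of all genes tested, and 0 were higher, with 10 and 1 at an unadjusted p under 0.05. In SJL 4 were lower than in B6, against 7.68%, and 0 were higher, with 6 and 1 at an unadjusted p under 0.05. Between SJL and KS, 2 were higher in SJL, against 6.8%, and 1 was lower, against 8.08%. The median differences were -0.12, -0.12 and 0.02. Of the 10 interferon ligands, 7 had a probe set, and these were at or below 4.88 on all arrays, at the lower end, so a difference in ligand was not measurable. The kinases Jak1 and Tyk2 and the other receptor genes held 0 calls among 7 in each comparison, with at most 2 genes at an unadjusted p under 0.05. The other STAT and IRF factors held 0 among 4, with at most 1.

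The called pathway genes came from several of the lists. Trim21, a ligase that degrades antibody-bound virus, read 2517, 2183 and 1987 on the B6 arrays, 1428, 1541 and 1527 on the KS arrays and 1311, 1277 and 1156 on the SJL arrays, with differences of -0.56 ± 0.11 (adjusted p = 0.0176) and -0.83 ± 0.11 (adjusted p = 0.00109). Adar, the RNA editing enzyme that restrains MDA5, read 989, 838 and 592 on the B6 arrays, 449, 457 and 450 on the KS arrays and 444, 477 and 478 on the SJL arrays, with differences of -0.79 ± 0.17 (adjusted p = 0.0286) and -0.75 ± 0.17 (adjusted p = 0.0169). Traf6, a ligase in signalling from receptors of infection, was lower in SJL than in both other strains. It read 194, 204 and 227 on the B6 arrays, 185, 175 and 170 on the KS arrays and 83.1, 94.3 and 76.3 on the SJL arrays, with SJL minus B6 at -1.21 ± 0.10 (adjusted p = 8.82e-05) and SJL minus KS at -0.98 ± 0.10 (adjusted p = 0.000308), while its next probe set gave 0.04 (adjusted p = 0.888) and 0.06 (0.793). Cgas, the sensor of cytosolic DNA, read 369, 244 and 439 on the B6 arrays, 250, 244 and 199 on the KS arrays and 168, 247 and 170 on the SJL arrays, with SJL minus B6 at -0.80 ± 0.23 (adjusted p = 0.0483). Uba7, the activating enzyme of ISG15, and Trim25, a ligase that acts on RIG-I, were lower in KS than in the other strains. Uba7 read 1022, 819 and 888 on the B6 arrays, 619, 686 and 518 on the KS arrays and 805, 878 and 955 on the SJL arrays, with KS minus B6 at -0.58 ± 0.13 (adjusted p = 0.0413) and SJL minus KS at 0.53 ± 0.13 (adjusted p = 0.0283). Trim25 read 5559, 6411 and 6209 on the B6 arrays, 4140, 3988 and 4278 on the KS arrays and 6475, 5587 and 6424 on the SJL arrays, with KS minus B6 at -0.55 ± 0.10 (adjusted p = 0.0123) and SJL minus KS at 0.57 ± 0.10 (adjusted p = 0.00457). With Ube2l6, the activating and the conjugating enzyme of ISG15 had their lowest values in KS. Leaving out 1 array ended some of these calls. The KS call of Trim21 was lost without B6-1 (adjusted p 0.052) or any 1 KS array (0.0595 to 0.0628), and that of Trim25 without KS-2 (0.0597). For Adar the KS call was lost without B6-1 (0.067) or B6-2 (0.0839), any 1 KS array (0.0776 to 0.0995) or SJL-3 (0.0533), and the SJL call without B6-2 (0.0564). For Uba7 the KS call was lost without any 1 array (0.0524 to 0.133) and the SJL minus KS call without KS-1 (0.0693) or KS-3 (0.0941) or SJL-2 (0.0644) or SJL-3 (0.0993). The Cgas call was lost without any array except B6-2 and SJL-2 (0.0682 to 0.149). The second Trim21 probe set gave -0.04 for KS minus B6 (adjusted p = 0.831) and 0.24 for SJL minus B6 (adjusted p = 0.0858). The next Uba7 probe set gave -0.61 for KS minus B6 (adjusted p = 0.0583) and 0.46 for SJL minus KS (adjusted p = 0.0837), neither called. That of Cgas gave -0.43 for SJL minus B6 (adjusted p = 0.235), not called.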

How the data were processed

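RNA of 9 mice was measured on Affymetrix arrays, biotin-labelled by the standard protocol per the labels. The authors deposited probe set intensities on a linear scale, already summarised over probes. No source used here states how they corrected background, combined probes or scaled arrays. Upper quartiles were 380 to 398. The genes and lists were chosen with earlier results of these data known.

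A pseudocount of 10 was added before log2. The filter kept the 22519 probe sets whose mean log2 value was at least the median over all 45037 that are not array controls. limma 3.58.1 in R 4.3.3 fitted 1 mean per strain (lmFit, eBayes, two-sided, Benjamini-Hochberg); the script was tested on simulated data. An exact permutation test of 3 against 3 arrays cannot go below 0.1, so none is reported. Array number limits the precision. Of all non-control probe sets, 34945 had 1 gene symbol, 932 several and 9160 none. Genes named with values on every array are those called in any test, the highest-mean gene per role, the 6 with the largest SD within B6, Xaf1, whose probe sets gave called differences of opposite sign, and the called pathway genes. Oasl1 and Ifnar2 were added to them after their values were seen, as were the counts without the genes tested only through B6 and without Xaf1.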

Additional observations from a re-analysis of the deposited data

How the results depend on the processing

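Of the calls on single genes, 26 of 32 held under every alternative tried for KS against B6, 26 of 31 for SJL against B6 and 1 of 10 for SJL against KS. Leaving out 1 array at a time gave 27 to 33 genes lower in KS than in B6 and 0 higher, 27 to 32 lower and 0 to 1 higher in SJL than in B6, 4 to 11 higher and 0 to 3 lower in SJL than in KS, and 29 to 34 by the F-test. The medians ranged from -2.23 to -1.84, from -1.86 to -1.45 and from 0.08 to 0.33. All these counts and medians are over the 39 tested genes, Rsad2, Mx1 and Cmpk2 among them. The counts are given without the share over all genes. The largest SD lay in B6 for 15 to 26 genes, in KS for 1 to 7 and in SJL for 10 to 19. This check was chosen after seeing the data and is given without the share over all genes.

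Among the other alternatives, genes higher in SJL than in KS numbered 4 with no filter, 21 with array weights, 5 with the mean of all tested probe sets and 1 with the next probe set of each gene. Genes lower in SJL than in KS numbered 0 with no filter, 1 with quantile normalization, 1 with a pseudocount of 1, 1 with a pseudocount of 50, 4 with the mean of probe sets and 1 with the next probe set. The median of SJL minus KS was 0.37 with array weights, whose iteration stopped before it converged. Array weights gave 1 gene higher in SJL than in B6. Only 12 genes had a next probe set that passed the filter. Of these, 9 were lower and 1 was higher in KS than in B6, 9 were lower in SJL, 10 passed the F-test, and the medians were -0.81 and -1.0. Their largest SD lay in B6 for 7 and in SJL for 3. The next probe sets of Rsad2, Rtp4, Sp100 and Stat2 reached the limit for testing only through B6, and that of Xaf1 only through KS. A strain difference was thus a condition of testing them, and they are among these counts. No share over all genes is given beside the counts, so the counts are no result about these genes. A pseudocount of 50 moved the medians to -1.80 for KS and -1.47 for SJL against B6, and the SJL median was -1.50 with a filter at the 70th percentile and -1.48 with plain probe sets alone. Under the 70th percentile filter, which kept 27 genes, the largest SD lay in B6 for 12 and in KS for 1. For KS it was 4 with quantile normalization, 4 with median centring, 4 with a pseudocount of 1 and 1 with a pseudocount of 50.

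Of single genes, the sign turned for Xaf1 in SJL minus KS (-1.0 with the mean of probe sets, -5.06 with the next), for Xaf1 in KS minus B6 (0.25 and 5.06), for Xaf1 in SJL minus B6 (0.01 with the next probe set), and for Eif2ak2 in SJL minus KS (-0.10 and -0.64). The cause was not tested.

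Replicate numbers did not pair the mice. Correlations of residuals between arrays of the same number were 0.07 to 0.263 for number 1, -0.266 to 0.162 for number 2 and -0.2 to 0.061 for number 3, and 4 of 9 arrays correlated best with their own number. With a replicate block, 30 of the 39 genes were lower in KS and 31 in SJL than in B6, 7 were higher and 2 lower in SJL than in KS, and 34 passed the F-test.

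With 3 arrays per strain, differences near the spread between mice could not be resolved, and values near the lower end of the scale are upper bounds.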
